A study of Mus musculus with 12 samples.

Results

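ESCRT-I is the soluble complex that carries ubiquitinated membrane proteins towards the inside of multivesicular endosomes. It also takes part in the budding of some viruses and in the last cut between daughter cells. Each complex holds Tsg101, which binds ubiquitin and short peptide motifs of its partners, Vps28, which links ESCRT-I to ESCRT-II, 1 of the Vps37 paralogs, and 1 of the alternative subunits Mvb12a, Mvb12b and Ubap1. The genes described here are Vps37b and the other members Vps37a, Vps37c, Tsg101, Vps28, Mvb12a, Mvb12b and Ubap1, which were picked out by gene name from the deposited tables. They are 8 of 20856 genes that could be matched over all tables. Vps37b was chosen because its exon reads were higher in thrombus and vein wall than in spleen, so those differences are given as a description and not as a test.

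The cells were live regulatory T cells (Treg), sorted as CD45+, CD4+, CD69+ and positive for the Foxp3 reporter EGFP, from thrombus, vein wall and spleen. All mice were of the DEREG line, C57BL/6 animals with the transgene Tg(Foxp3-DTR/EGFP)23.2Spar. It places a fusion of EGFP and the receptor for diphtheria toxin under the control of Foxp3 regulatory sequence. All mice had the inferior vena cava ligated to reduce flow, and tissues were taken at day 14, so the spleens also came from mice with a thrombus. No unligated mice were analysed here, and the labels used here give neither age nor sex, nor whether animals were pooled. Each tissue had 4 RNA-seq libraries, made from 2 ng of total RNA with 12 cycles of cDNA amplification.

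The libraries held 9719151 to 55386086 total exon reads. The files fell into 3 sets by their layout and gene models, and the set of files carried most of the leading pattern of variation. It accounted for a share of 0.902 of the first principal component (23.4% of variance), against 0.0279 for tissue. For the second component (16.0% of variance), the shares were 0.666 for the set of files and 0.578 for tissue. Vein wall 3 and 4, and spleen 3 and 4, differed far less from each other than any other pair within a tissue. The mean chi-square per gene was 2.56 for the vein wall pair and 3.95 for the spleen pair, against 96.8 to 354 in the other 16 pairs. Each of these close pairs was summed and counted as 1 sample, which left 4 thrombus, 3 vein wall and 3 spleen samples. The labels do not say whether replicates came from separate animals, so each p-value reflects sample-to-sample spread, which may be technical. Foxp3 was found in every sample, with 275 to 706 counts per 1000000 exon reads (CPM) in thrombus, 354 to 484 CPM in vein wall and 400.3 to 674 CPM in spleen. The 6 markers of the sort (Foxp3, Cd4, Ptprc, Il2ra, Cd69 and Cd3e) summed to 3098 to 4182 CPM in thrombus, 3289 to 5437 CPM in vein wall and 3374 to 4264 CPM in spleen.

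Vps37b, one of the Vps37 paralogs that join Tsg101 and Vps28 in the core of the complex, had 594, 174, 250 and 269 CPM in thrombus samples 1 to 4, 308, 185 and 127 CPM in vein wall samples 1, 2 and 3-4, and 20.8, 17.2 and 20.1 CPM in spleen samples 1, 2 and 3-4. Every thrombus and vein wall sample was above every spleen sample, and the spleen samples lay close together. Among all genes tested, groups did not overlap for 4.97% of genes in thrombus against spleen and for 13.3% in vein wall against spleen. The mean was 321 ± 186 CPM in thrombus (SD, n = 4), 207 ± 92.4 CPM in vein wall (SD, n = 3) and 19.4 ± 1.90 CPM in spleen (SD, n = 3). The fitted log2 fold change was 4.05 (SE 0.48) for thrombus against spleen and 3.41 (SE 0.48) for vein wall against spleen. Both contrasts share the spleen samples. In bulk samples, fewer cells of a type and less RNA per cell cannot be told apart.

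**Figure D1:**
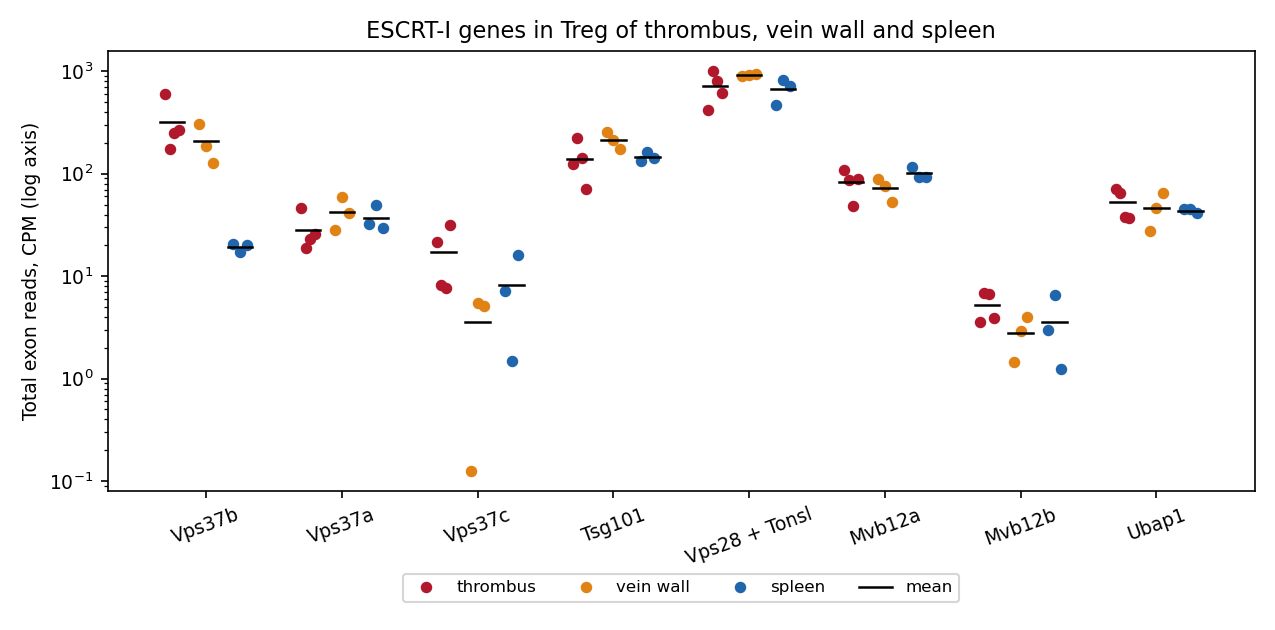
Total exon reads of the ESCRT-I genes in CPM (log axis), with 1 point per sample and a bar at the mean, for thrombus (n = 4), vein wall (n = 3) and spleen (n = 3). Vps37b lies between 127 and 594 CPM in all thrombus and vein wall samples and at 17.2 to 20.8 CPM in spleen. Vps37c lies higher in all thrombus samples (7.61 to 31.5 CPM) than in all vein wall samples (0.127 to 5.42 CPM). Vps28 is shown as the sum of Vps28 and Tonsl.

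Thrombus and vein wall overlapped in Vps37b. The log2 fold change of thrombus against vein wall was 0.64 (SE 0.41), with a 95% interval of -0.23 to 1.5 and an adjusted p of 0.9995 by edgeR's quasi-likelihood test over all genes. In this comparison 0 of 11706 genes were called at an adjusted p under 0.05 (0.0%), with 341 genes at an unadjusted p under 0.05. DESeq2's Wald test called 10. Thrombus 1 was above every vein wall sample, whereas thrombus 2 lay below vein wall samples 1 and 2.

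The tissues were also compared within each set of files, where layout and gene models are the same, and with no test. In set 1, Vps37b had 594 CPM in thrombus and 20.8 CPM in spleen, a ratio of 28.5. In set 2, it had 174 CPM in thrombus, 308 CPM in vein wall and 17.2 CPM in spleen, which gives a ratio of 10.1 for thrombus over spleen and 17.9 for vein wall over spleen. In set 3, the means were 259 CPM in thrombus, 156 CPM in vein wall and 20.1 CPM in spleen, with ratios of 12.9 and 7.75 over spleen. Thrombus was thus above spleen in each of the 3 sets, and vein wall in both sets that hold it. Between thrombus and vein wall the order was not the same: the ratio of thrombus over vein wall was 0.564 in set 2 and 1.66 in set 3.

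Vps37b is annotated on the minus strand of chromosome 5 in GRCm38, from 124004641 to 124032270. In the Ensembl-based models of sets 1 and 3, its 3′ end overlaps the last exon of Hip1r, a clathrin- and actin-binding protein on the plus strand, by 918 bases. The kit does not mark strand, so reads there cannot be assigned to a strand. In set 2 the Hip1r model ends 1426 bases away, and every Vps37b exon read was unique. In sets 1 and 3, 78.8% to 86.2% of the Vps37b exon reads were not unique in thrombus and vein wall libraries, and 64.3% to 82.2% in spleen libraries. Of all non-unique reads of both genes, Vps37b was given 95.3% to 97.8% in thrombus, 92.2% to 96.1% in vein wall and 60.5% to 77.9% in spleen.

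The unique exon reads of Vps37b gave 126, 174, 43.8 and 55.1 CPM in thrombus samples 1 to 4, 308, 35.3 and 17.9 CPM in vein wall samples 1, 2 and 3-4, and 3.72, 17.2 and 6.16 CPM in spleen samples 1, 2 and 3-4. The samples of set 2, where every read was unique, were the highest of their tissue by this count, and vein wall 1 was also the highest of vein wall by total exon reads. Vein wall 3-4 lay just above spleen 2. Reads that span an exon-exon junction, an added alternative chosen after seeing the data, were at 28.0, 12.5, 8.67 and 14.6 CPM in thrombus, 22.0, 9.67 and 4.54 CPM in vein wall and 0.841, 0.268 and 1.45 CPM in spleen. By junction reads every thrombus and vein wall sample was again above every spleen sample. The log2 fold changes of thrombus and of vein wall against spleen were 3.47 and 3.72 by unique exon reads, and 4.25 and 3.76 by junction reads. Within sets of files, the ratios over spleen in set 3 were smaller than by total reads: 8.03 for thrombus and 4.31 for vein wall by unique reads, and 8.01 and 4.90 by junction reads. In set 1 the ratio of thrombus over spleen was 33.9 by unique and 33.2 by junction reads. In set 2 the junction ratios were 46.7 for thrombus and 82.2 for vein wall, over a spleen value of 0.268 CPM. These are other counts of the same libraries and do not add independent samples.

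Intron reads of Vps37b were at 38.9, 22.2, 40.3 and 38.3 CPM of the exon total in thrombus, 43.7, 18.3 and 33.02 CPM in vein wall and 13.9, 1.07 and 2.51 CPM in spleen. Spleen 1 was the highest of the spleen samples and still below every thrombus and vein wall sample. The fitted log2 fold change on intron reads was 2.58 (SE 0.67) for thrombus against spleen and 2.78 (SE 0.69) for vein wall against spleen, given without a test. Between thrombus and vein wall it was -0.20, with a 95% interval of -1.49 to 1.09 and an adjusted p of 0.998 by edgeR. Introns took 6.15% to 13.9% of the gene's reads in thrombus libraries, 9.02% to 21.1% in vein wall libraries and 5.85% to 11.6% in spleen libraries other than spleen 1, where it was highest of all.

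**Figure D2:**
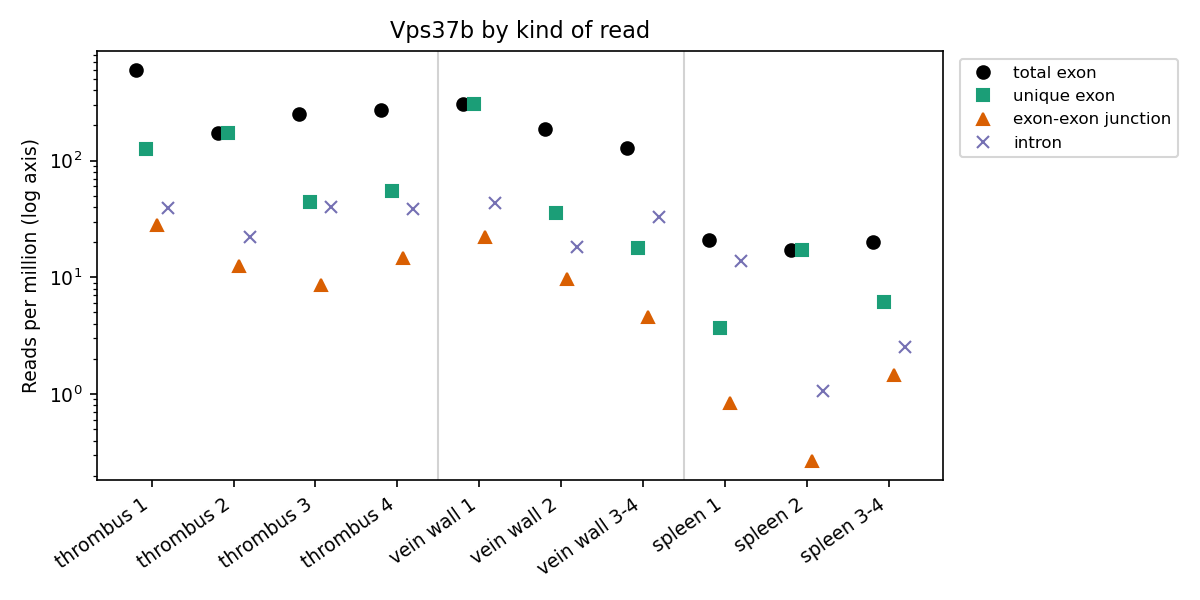
Reads of Vps37b in CPM (log axis) in each of the 10 samples, by kind of read: total exon, unique exon, exon-exon junction and intron. Total exon, junction and intron reads are higher in every thrombus and vein wall sample than in every spleen sample. Unique exon reads of vein wall 3-4 (17.9 CPM) lie close to those of spleen 2 (17.2 CPM), but the 2 samples are of different sets. Every read was unique in spleen 2 (set 2), against 14.0% in vein wall 3-4 (set 3). Within set 3 the ratio of mean unique reads of vein wall over spleen was 4.31.

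Genes next to Vps37b were compared by total exon reads, which for Hip1r include non-unique reads where its model overlaps that of Vps37b. Hip1r had log2 fold changes of -0.27 (SE 0.71) for thrombus and -0.30 (SE 0.77) for vein wall against spleen, and was not called by edgeR (adjusted p 0.9998 and 0.990). Its level was 49.6, 1.73, 42.0 and 21.3 CPM in thrombus, 26.4, 25.3 and 32.4 CPM in vein wall and 49.98, 21.0 and 32.7 CPM in spleen, with thrombus 2 far below the rest. By unique exon reads of Hip1r, the tissues also overlapped. By its junction reads, every thrombus and vein wall sample lay below every spleen sample. The junction values were 0.224 to 2.14 CPM in thrombus, 0.0499 to 0.823 CPM in vein wall and 2.94 to 4.72 CPM in spleen. They rest on few reads in some samples, 2 in the lowest sample, and this difference was not tested. Abcb9, a lysosomal peptide transporter 29260 bases from Vps37b, had log2 fold changes of 0.30 (SE 0.46) and 0.61 (SE 0.49), and Ccdc62 had -0.16 (SE 1.2) and 1.22 (SE 1.30). Neither was called. The annotated neighbours Gm37939, which lies across the 3′ end of Vps37b, Gm34086, Gm43661, LOC108169068 and Mir7032 were not in the matched tables and were not analysed here.

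The other Vps37 paralogs fill the same place in the complex. Vps37a, whose N-terminal part reaches membranes, had 46.0, 18.7, 22.9 and 25.9 CPM in thrombus, 28.2, 59.0 and 41.1 CPM in vein wall and 32.2, 49.8 and 29.4 CPM in spleen. The tissues overlapped, and the log2 fold change was -0.39 (SE 0.48) for thrombus and 0.20 (SE 0.52) for vein wall against spleen. Its gene overlaps that of Cnot7, a deadenylase subunit, by 4065 bases. Cnot7 had log2 fold changes of -0.34 and 0.00 in the same comparisons. Mtmr7, which also overlaps Vps37a, had 0.08 and -1.11, and neither gene was called.

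Vps37c had 21.5, 8.27, 7.61 and 31.5 CPM in thrombus, 0.127, 5.42 and 5.11 CPM in vein wall and 7.15, 1.5 and 16.2 CPM in spleen. This was the widest fold range of the paralogs only through vein wall 1. Without that sample, Vps37c ranged from 1.5 to 31.5 CPM, a smaller fold range than that of Vps37b (17.2 to 594 CPM). Vein wall 1 held 2 exon reads of Vps37c, whereas the other libraries held between 28 and 896. All thrombus samples were above all vein wall samples, which held in either direction for 3.84% of all genes tested. The log2 fold change of thrombus against vein wall was 2.27 (SE 1.10), with a 95% interval of -0.03 to 4.58. It was not called by edgeR (adjusted p = 0.9995), and it was 1.69 without vein wall 1.

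Levels of different genes were compared as CPM per kilobase of exon, using the exon length of each file. On this scale, Vps37b made up 93.0%, 93.1%, 93.6% and 86.2% of the summed Vps37a, Vps37b and Vps37c in thrombus samples 1 to 4, 96.5%, 86.4% and 85.5% in vein wall samples 1, 2 and 3-4, and 48.3%, 45.5% and 41.4% in spleen samples 1, 2 and 3-4. By total exon reads per kilobase, Vps37b was the largest of the 3 in every thrombus and vein wall sample, and in spleen samples 1 and 3-4. In spleen 2, Vps37a was the largest, at 51.8%. Vps37c had 2.97% to 10.6% in thrombus, 0.0266% to 3.58% in vein wall and 2.66% to 34.8% in spleen. The share of Vps37b follows from the difference that it was chosen for. It also rests on total exon reads, most of them not unique in sets 1 and 3. By unique exon reads, Vps37b had 3.72 CPM in spleen 1 and 6.16 CPM in spleen 3-4, below Vps37c (7.15 and 16.2 CPM, all unique). As a share of reads, without length, Vps37a was the largest in spleen samples 1, 2 and 3-4 (53.5%, 72.7% and 44.7%). The 4th paralog, Vps37d, was at 0 to 0.13 CPM in thrombus, 0 to 0.0249 CPM in vein wall and 0 to 0.911 CPM in spleen, and did not pass the filter on low counts.

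**Figure D3:**
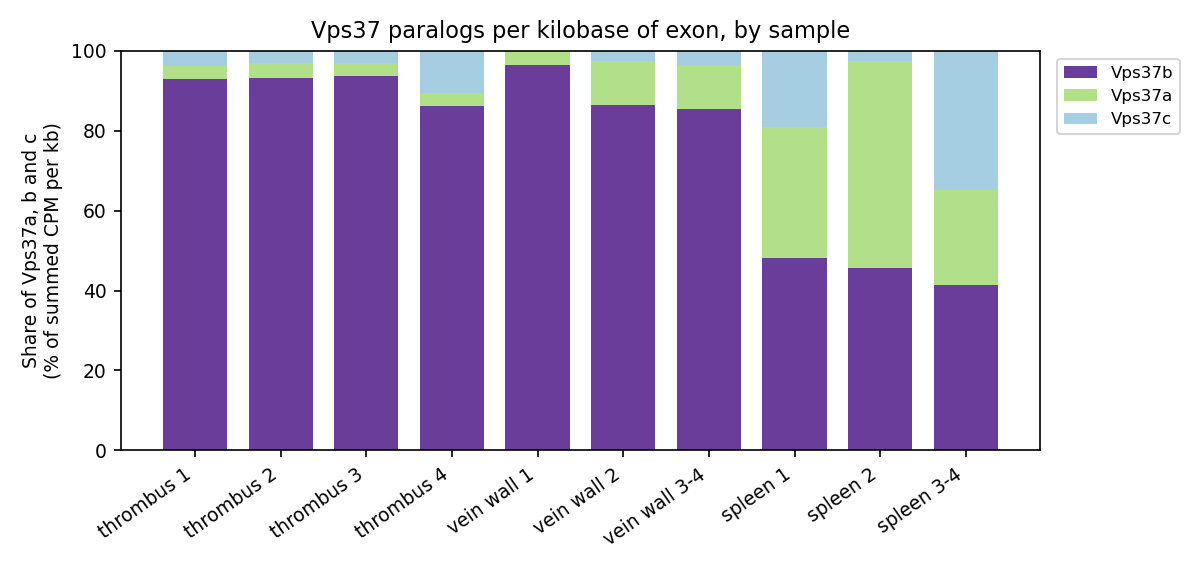
Share of Vps37a, Vps37b and Vps37c in their summed level (CPM per kilobase of exon, from total exon reads, unique or not), with 1 bar per sample. Vps37b fills 85.5% to 96.5% of the bar in thrombus and vein wall samples and 41.4% to 48.3% in spleen samples.

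The core subunits showed no called difference. Tsg101 had 124, 225, 142 and 71.2 CPM in thrombus, 254, 213 and 173 CPM in vein wall and 132, 165 and 142 CPM in spleen. Its log2 fold change was -0.06 (95% interval -0.82 to 0.70) for thrombus and 0.54 (-0.28 to 1.36) for vein wall against spleen. Thrombus 4 was the lowest sample by exon reads and had the highest share of intron reads, 37.0% of the gene's reads against 0.348% to 9.44% in the other libraries.

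Vps28 is listed under its own name in set 2 only, with 18065 exon reads in thrombus 2, 14269 in vein wall 1 and 15193 in spleen 2. In sets 1 and 3 the Tonsl model, at 76622088 to 76639958 of chromosome 15, spans the Vps28 locus, so the 2 genes were summed in every sample. In set 2, Vps28 made up 97.9% to 99.7% of this sum. The sum was 423, 1012, 796 and 616 CPM in thrombus, 907, 917 and 941 CPM in vein wall and 467, 831 and 721 CPM in spleen. Its log2 fold change was 0.08 (-0.61 to 0.77) for thrombus and 0.45 (-0.28 to 1.19) for vein wall against spleen.

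Among the alternative subunits, Mvb12a had 109, 86.2, 48.5 and 88.0 CPM in thrombus, 88.0, 75.6 and 53.3 CPM in vein wall and 116, 93.7 and 92.2 CPM in spleen. Its log2 fold change was -0.28 (-1.06 to 0.49) for thrombus and -0.48 (-1.31 to 0.35) for vein wall against spleen. Ubap1 had 71.4, 64.2, 37.6 and 37.3 CPM in thrombus, 27.7, 46.1 and 65.5 CPM in vein wall and 45.2, 44.8 and 41.1 CPM in spleen, and its spleen samples lay within the range of both other tissues. Its log2 fold change was 0.27 (-0.66 to 1.19) for thrombus and 0.09 (-0.90 to 1.07) for vein wall. Mvb12b was low throughout, at 3.57 to 6.87 CPM in thrombus, 1.46 to 3.96 CPM in vein wall and 1.24 to 6.48 CPM in spleen, and its intervals were the widest of the alternative subunits, -1.96 to 3.08 for thrombus and -3.03 to 2.30 for vein wall. Nron and Gm33856, annotated within Mvb12b, and Gm45628, within Tsg101, were not in the matched tables and were not analysed here. The related Ubap1l had at most 1 exon read in any library.

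All 8 members passed the filter on low counts. Against spleen, edgeR called 17 of 11706 genes in thrombus (0.145%) and 13 in vein wall (0.111%), all higher there, and Vps37b was the only member among them, as its choice fixed. These counts were 34 and 28 without spleen 1, 6 and 5 without spleen 2, and 8 and 6 without spleen 3-4. Of the other 7 members, 0 were called in any comparison, with the smallest adjusted p at 0.9998 for thrombus against spleen, 0.962 for vein wall against spleen and 0.9995 for thrombus against vein wall. Their smallest unadjusted p was 0.0529, so 0 were under 0.05 before adjustment. In DESeq2's Wald test none of the 7 was called either. Their median log2 fold change was 0.08 for thrombus and 0.09 for vein wall against spleen, beside medians of 0.03 and -0.01 over all genes tested. In vein wall, Tsg101 and the sum with Vps28 were above all spleen samples and Mvb12a below all of them, beside 13.3% of all genes that did not overlap in that comparison. The intervals above do not exclude moderate changes of these genes.

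On intron reads, edgeR called 1 of 11819 genes (0.00846%) in thrombus and 1 in vein wall against spleen, and 0 between thrombus and vein wall, where 380 had an unadjusted p under 0.05. Of the other 7 members 0 were called on intron reads, and 1 had an unadjusted p under 0.05. It lay in vein wall against spleen, where 772 genes (6.53%) had one. The smallest adjusted p among them, 0.755, was that of Vps37c in vein wall against spleen, with a log2 fold change of -2.74 (SE 1.24).

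**Figure D4:**
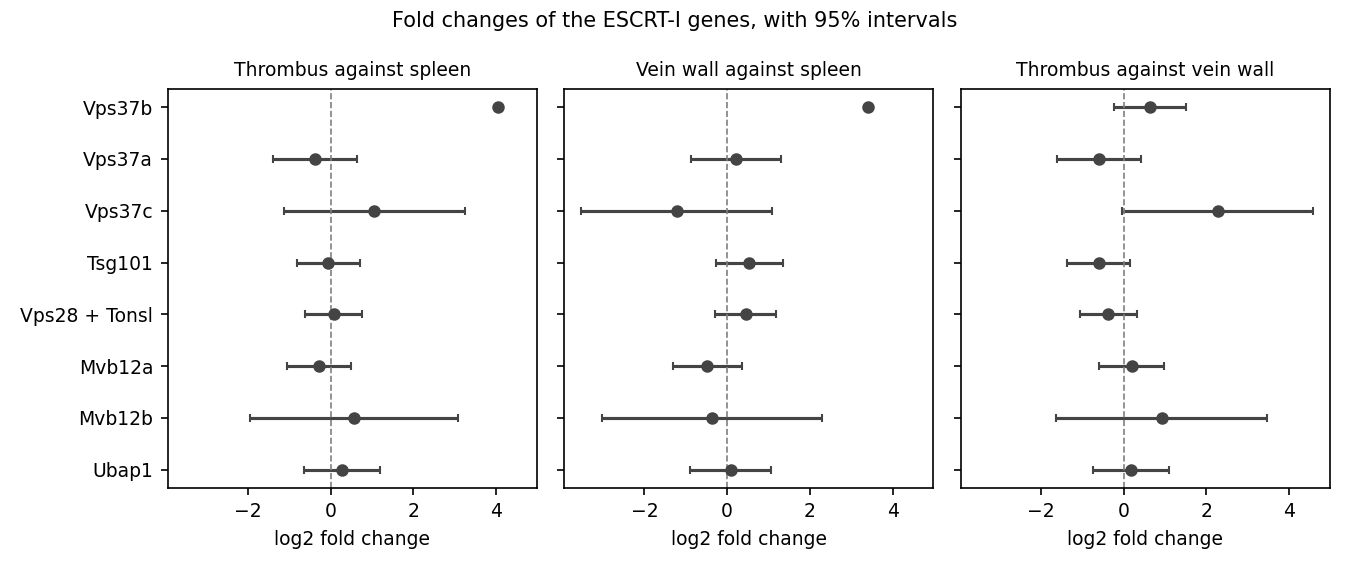
Log2 fold change of each ESCRT-I gene for thrombus against spleen, vein wall against spleen and thrombus against vein wall, with 95% intervals. The 2 values of Vps37b against spleen, 4.05 and 3.41, are drawn without an interval because the gene was chosen for them, and the intervals of all other points include 0.

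The order of levels per length differed between tissues at Vps37b, which follows from the difference that the gene was chosen for. By medians, Vps37c stood above Vps37a in thrombus and below it in vein wall and spleen, but the single samples were mixed. Vps37c was above Vps37a in thrombus samples 1 and 4 and in spleen 3-4, and below it in all other samples. In thrombus, the medians ran from Vps28 (969 CPM per kilobase, in 1 sample) over Vps37b (103), Tsg101 (59.0), Mvb12a (36.8), Ubap1 (10.8), Vps37c (6.04) and Vps37a (3.83) to Mvb12b (0.698). In vein wall, they ran from Vps28 (867, in 1 sample) over Tsg101 (109), Vps37b (73.2), Mvb12a (41.3), Ubap1 (13.3), Vps37a (6.44) and Vps37c (2.12) to Mvb12b (0.573). In spleen, they ran from Vps28 (781, in 1 sample) over Tsg101 (72.9), Mvb12a (39.1), Ubap1 (11.9), Vps37b (7.47), Vps37a (5.04) and Vps37c (2.96) to Mvb12b (0.286). Vps37b thus stood next to Tsg101 in thrombus and vein wall, and between Ubap1 and Vps37a in spleen.

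The samples of many neighbours in this order overlapped. In thrombus, Vps37b ranged from 69.2 to 213 CPM per kilobase and Tsg101 from 36.5 to 120. Thrombus 2, where every Vps37b read was unique, had the lowest Vps37b and the highest Tsg101 of the thrombus samples. In the other thrombus samples Vps37b was above Tsg101, by exon reads that were mostly not unique. In vein wall, Vps37b ranged from 50.5 to 123 and Tsg101 from 88.5 to 135. In spleen, Vps37b ranged from 6.87 to 7.99, within reach of Ubap1 (7.27 to 12.6) and Vps37a (4.61 to 7.81). The ratio of Vps37b to Tsg101 per kilobase was 0.576 to 4.69 in thrombus, 0.571 to 0.907 in vein wall and 0.0781 to 0.154 in spleen. Its difference from spleen likewise follows from the choice of Vps37b. Exon lengths differ between the sets of files, for Mvb12b between 5058 and 22700 bases, and its levels per length move with them.

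The other steps of the ESCRT pathway were read from fixed lists of 39 genes, all of which passed the filter. Of them 0 were called in any of the 3 comparisons by edgeR, and 0 by DESeq2. The only unadjusted edgeR p under 0.05 among them was that of Chmp6 in vein wall against spleen, at 0.0356. Their median log2 fold change was -0.02 for thrombus and -0.06 for vein wall against spleen, with 18 and 19 of the 39 genes above 0. ESCRT-0 and related adaptors, which gather ubiquitinated cargo, had medians of 0.05 and 0.06 over 10 genes, with Stam2 at -0.02 and 0.51 and Tollip at 0.72 and 0.32. ESCRT-II had -0.16 and 0.19 over 3 genes, with Vps25 at -0.16 and 0.19 and Snf8 at -0.36 and -0.38.

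ESCRT-III forms the filaments that narrow the membrane neck. Its 11 genes had median log2 fold changes of 0.02 for thrombus and 0.49 for vein wall against spleen. Chmp2a, the most abundant of them by CPM, was at 0.20 and 0.27. Chmp6 had 53.8, 45.5, 41.7 and 49.1 CPM in thrombus, 31.3, 57.6 and 29.8 CPM in vein wall and 79.0, 65.1 and 89.8 CPM in spleen. Every spleen sample was above every sample of the other tissues, and the log2 fold changes were -0.71 (SE 0.40) and -0.98 (SE 0.43). Among all genes tested, groups did not overlap for 4.97% in thrombus and 13.3% in vein wall against spleen. Of the 39 ESCRT genes, 1 was higher and 2 were lower without overlap in thrombus. In vein wall, 3 were higher and 4 lower. Neither change of Chmp6 was called by edgeR (adjusted p 0.9998 and 0.886).

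The VPS4 group, the ATPases that take the filaments apart and their helpers, had medians of -0.02 and -0.24 over 5 genes, with Vps4b at -0.02 and -0.24 and Spast, a microtubule-severing ATPase, at 0.65 and -0.62. The associated factors had medians of -0.10 and -0.20 over 10 genes, with Sdcbp (syntenin-1) at -0.04 and 0.10. Cep55, which brings ESCRT proteins to the midbody at the end of cell division, was at 10.1, 11.0, 2.75 and 2.41 CPM in thrombus, 0.127, 0.913 and 1.75 CPM in vein wall and 2.31, 0 and 1.75 CPM in spleen. Its log2 fold change was 2.28 (SE 1.63) for thrombus against spleen and was not called (adjusted p 0.9998 by edgeR).

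**Figure D5:**
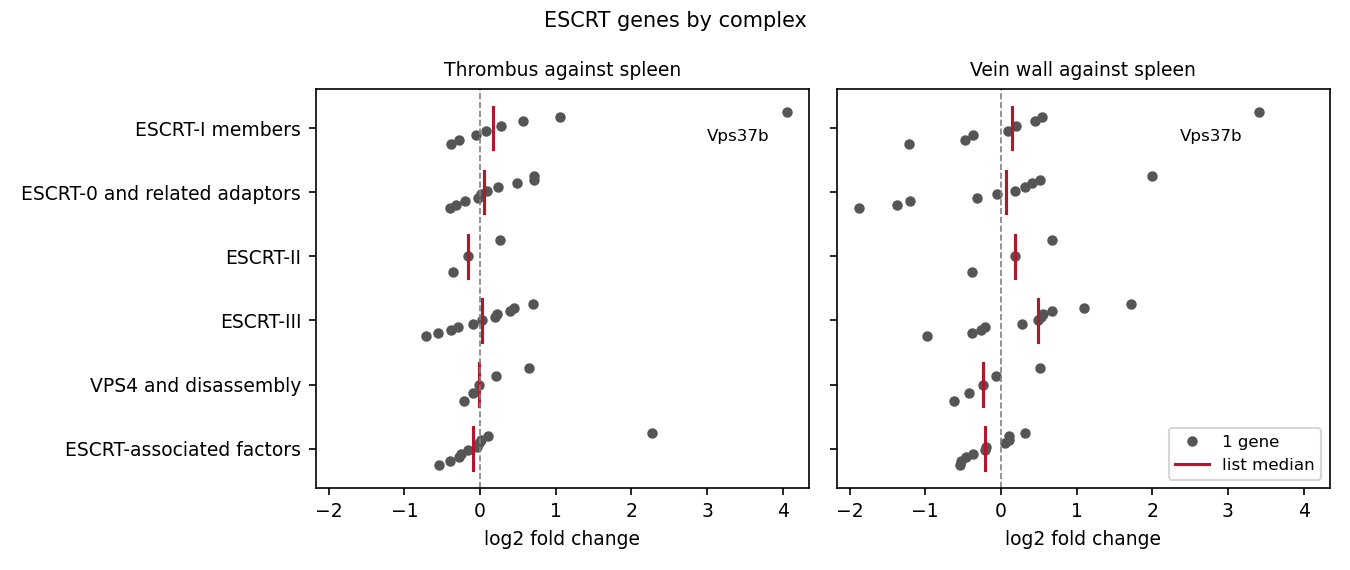
Log2 fold changes against spleen of the ESCRT genes that passed the filter, by list, for thrombus (left) and vein wall (right), with 1 point per gene and a line at the list's median. Vps37b, at 4.05 and 3.41, is the rightmost point in both panels, and the list medians lie between -0.24 and 0.49.

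The profile of Vps37b over the 10 samples was set beside those of all other genes tested, as log2 CPM centred on each gene's mean. The 5 genes with the smallest root mean square difference from it were Sgk1 (0.62), Csrnp1 (0.66), Spty2d1 (0.71), Crem (0.74) and Nr4a1 (0.78), where the median over all genes was 1.97. Since they were picked for likeness to a gene chosen for its change, their own differences from spleen are a description. Sgk1, a kinase whose transcript responds to serum and glucocorticoids, had 115, 91.5, 94.1 and 73.7 CPM in thrombus, 146, 83.0 and 99.9 CPM in vein wall and 19.4, 7.93 and 10.2 CPM in spleen. Csrnp1, a nuclear protein, had 141, 32.2, 104 and 157 CPM in thrombus, 50.1, 47.2 and 94.1 CPM in vein wall and 6.24, 7.02 and 6.16 CPM in spleen. In both genes every thrombus and vein wall sample was above every spleen sample.

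Crem, a transcription factor of the cAMP response, averaged 468 ± 109 CPM in thrombus, 519 ± 314 CPM in vein wall and 85.7 ± 13.03 CPM in spleen (SD, n = 4, 3 and 3). Nr4a1, an orphan nuclear receptor switched on early after T cell receptor signals, averaged 662 ± 275 CPM in thrombus, 430 ± 247 CPM in vein wall and 118 ± 39.6 CPM in spleen (SD, n = 4, 3 and 3). Spty2d1, a histone chaperone, averaged 159 ± 77.2 CPM in thrombus, 114 ± 21.1 CPM in vein wall and 21.5 ± 10.5 CPM in spleen (SD, n = 4, 3 and 3). The other ESCRT-I members stood at differences of 1.77 (Ubap1) to 2.57 (Vps37c) from Vps37b, at ranks 2419 to 9755 of 11705 genes.

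Other lists were read beside Vps37b. The summed level of 10 immediate early genes, a list that holds Nr4a1 and that can respond to tissue handling, was 2395 to 6494 CPM in thrombus, 3352 to 4654 CPM in vein wall and 777 to 3815 CPM in spleen. Within thrombus, sample 1 had the highest sum (6494 CPM) and the highest Vps37b (594 CPM), and sample 2 the lowest sum (2395 CPM) and the lowest Vps37b (174 CPM). Spleen 1 reached 3815 CPM with Vps37b at 20.8 CPM, and within vein wall sample 1 had the lowest sum (3352 CPM) and the highest Vps37b (308 CPM). By edgeR 1 of these 10 genes, Nr4a1, was called in thrombus against spleen and 0 in vein wall, with 4 at an unadjusted p under 0.05 in each. Over all 11706 genes, 483 (4.13%) and 639 (5.46%) had such a p. DESeq2 called 3 and 2 of the list, and 104 and 117 of all genes. Cd69, part of the sort, had log2 fold changes of 1.07 (SE 0.32) and 1.43 (SE 0.34) with no overlap with spleen and adjusted p-values of 0.585 and 0.219 by edgeR. Of the 6 sort markers, 3 were above 0 and 3 below in each comparison. Without overlap, 1 was higher in thrombus, and 2 were higher and 1 lower in vein wall. Over all genes tested, 4.97% and 13.3% did not overlap. The part of the immediate early genes and of Cd69 in the Vps37b difference was not tested.

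Markers of other cells were summed in the same way. The 6 fibroblast genes gave 4.33 to 18.7 CPM in thrombus, 10.3 to 59.8 CPM in vein wall and 0 to 0.453 CPM in spleen, where Col1a2, Col3a1 and Pdgfra were at 0. The 6 B and plasma cell genes gave 200.3 to 943 CPM in thrombus, 360.1 to 1271 CPM in vein wall and 158 to 295 CPM in spleen. The 6 macrophage and monocyte genes gave 44.6 to 1410 CPM in thrombus, 19.3 to 259 CPM in vein wall and 21.1 to 138 CPM in spleen. Thrombus 2, which had the highest sums of macrophage, erythroid and platelet genes of all samples, had the lowest Vps37b of the thrombus samples. Vein wall 1, which had the highest sums of macrophage, B and plasma cell, dendritic cell, and CD8 T and NK genes of the vein wall samples, had the highest Vps37b of them. The 6 pancreas acinar genes gave 18.7 to 166 CPM in thrombus, 27.9 to 134 CPM in vein wall and 22.1 to 111 CPM in spleen. Of the 5 genes of this list that passed the filter, 4 were above 0 in each comparison with spleen. The median log2 fold change of the 5 was 7.05 for thrombus and 5.71 for vein wall. By edgeR 1 of them, Try4, a trypsin, was called higher in both tissues (adjusted p 0.00551 for thrombus and 0.0131 for vein wall against spleen). Over all genes tested, 0.145% and 0.111% were called. DESeq2 called 2 and 1 of the list, and 104 and 117 of all genes. Try4 had 1.62, 5.87, 62.2 and 31.5 CPM in thrombus, 3.10, 20.3 and 18.4 CPM in vein wall and 0, 0 and 0.0129 CPM in spleen. The part of these cells in the Vps37b difference was not tested.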

How the data were processed

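Each library came as 1 table per gene. Per the file headers, the deposited values are counts of total, unique, intron and exon-exon junction reads, beside other deposited columns such as exon length. The submitters' processing notes name GRCm38. Neither an aligner nor a counter is named in the sources used here. The members and lists were chosen with earlier results of these data known. Genes were matched over the 3 sets of files by Ensembl identifier, symbol or synonym with overlapping position (20856 genes, 92.3% to 96.3% of exon reads). Tissues were compared with edgeR 4.0.16 (quasi-likelihood, robust, TMM, default filter, 10 samples in 1 fit) in R 4.3.3, with Benjamini-Hochberg adjustment over 11706 genes, and 11819 for intron reads, called under 0.05. CPM use the TMM-scaled total of exon reads. Alternatives included DESeq2 1.42.0. The fit was also run on simulated counts that had the same dispersion for all genes and no effect of the set of files. That run therefore does not cover differences between the sets.

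Levels per length were computed from reads and exon lengths in place of the deposited RPKM, and Vps28 was summed with Tonsl; both were decided after seeing the files. Named were all members, genes overlapping a member or within 50 kb of Vps37b, the 5 nearest profiles, the sort markers, and from each ESCRT list any called gene, the most abundant and the one with the largest thrombus change. Counts of 3 reads correspond to 0.0542 to 0.309 CPM, a limit for counting error only, since reads carry no molecular identifiers.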

Additional observations from a re-analysis of the deposited data

How the results depend on the processing

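The counts of called genes moved with the settings. With each of the 12 libraries as a sample, 34 genes were called for thrombus and 50 for vein wall against spleen. With the set of files as a covariate the counts were 53 and 48. With the replicate block on 12 libraries they were 51 and 64. The numbers were not taken to pair samples, because the labels repeat them without saying what they share. Same-numbered libraries correlated at -0.07 (spleen 1 and vein wall 1, of different sets) to 0.40 (spleen 1 and thrombus 1, of the same set). These correlations cannot separate a shared animal from a shared set of files. DESeq2's Wald test called 104, 117 and, for thrombus against vein wall, 10. No filter gave 80, 66 and 2. Unique exon reads gave 7 for vein wall, and junction reads 5 and 3. Leaving out 1 sample gave 6 to 34 for thrombus and 5 to 28 for vein wall, the lowest without spleen 2, the highest without spleen 1, and 8 and 6 without spleen 3-4. On intron reads, 12 libraries gave 4 and 15, and the set covariate 6 for vein wall. The cause was not tested.

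Of 484 alternative values of members, 465 kept their direction and call, 3 moved and 16 changed sign. The 3 that moved by more than the spread between samples, none of them tested, were Vps37b within set 1 in thrombus (4.83), within set 2 in vein wall (4.16), and on intron reads with the set covariate in vein wall (3.59). Over the alternatives fitted on exon reads and the total exon reads within sets, Vps37b against spleen was 3.33 to 4.83 (thrombus) and 2.95 to 4.16 (vein wall). By unique and junction reads within sets, which were not among the 484 values, it was 3.00 to 5.55 and 2.11 to 6.36. By intron reads within sets, also not among them, it was 1.49 to 4.37 and 3.35 to 5.35. The count of 3 that moved does not cover these. Leaving out 1 sample turned the sign of Vps37a in vein wall (range -0.084 to 0.51), Tsg101 in thrombus (-0.38 to 0.16), Vps28 in thrombus (-0.13 to 0.29), Mvb12b in vein wall (-0.77 to 0.42), and Ubap1 in vein wall (-0.25 to 0.38) and between thrombus and vein wall (-0.11 to 0.51). Vps37b between thrombus and vein wall was -0.25 by unique reads and -0.83 within set 2. Mvb12b in vein wall was 0.010 with 12 libraries and 0.16 with the replicate block. On intron reads, Tsg101 (-0.20) and Ubap1 (0.67) in thrombus turned with the set covariate, and Vps28 in thrombus (-0.066) and Mvb12b between thrombus and vein wall (-0.11) with 12 libraries. The cause was not tested, and none of these values was called. With 3 or 4 samples a tissue, the intervals of the low genes Vps37c and Mvb12b span several-fold changes.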
